A study of Mus musculus with 35 samples.

Results

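The comparison set pancreatic lymph nodes of NOD mice at 20 weeks of age against those at 12 weeks, as the difference of the mean log2 ratio of NOD over NOD.B10 signal. By their titles 12 of the 35 arrays of the series belonged to it, 5 at 20 weeks and 7 at 12 weeks. Each array carried Cy3-labelled RNA from pancreatic lymph nodes of female NOD/LtJ mice, an inbred strain prone to autoimmune diabetes. The same array carried Cy5-labelled RNA of female NOD.B10Sn-H2b/J mice, a related strain with another haplotype of the major histocompatibility complex (MHC). The labels call the NOD channel diabetic and the NOD.B10 channel control at both ages. The series description names 2 groups of 10 control mice, aged 10 days and 20 weeks. Which control RNA lay on which array, and how many mice gave a NOD sample, could not be read from the labels. Whether the control channels of an age hold 1 RNA hybridised repeatedly or several cannot be told from the labels, so calls in that channel, and the control's part of each ratio, rest on spread between arrays and not on a known number of control mice. NOD was always Cy3, so a gene's dye bias cancels between the ages only where it was constant. Nothing states that the arrays of an age came from separate animals, so the p-values rest on array-to-array spread, part of which may be technical.

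The pancreatic lymph node drains the pancreas, and in NOD mice it is a place where T cells meet antigens of the insulin-producing islet cells. Most of its cells are T and B lymphocytes, held in a mesh of fibroblasts and vessels. RNA of neighbouring pancreatic tissue can come with it, since digestive enzymes are made there in very large amounts. Red cell precursors and neutrophil precursors belong to bone marrow and spleen and are not typical residents of a resting node. The arrays measured whole tissue RNA, in which a change in the number of cells of a type and a change of RNA per cell cannot be told apart.

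A positive difference means a higher ratio of NOD over NOD.B10 at 20 weeks, and genes were called at a Benjamini-Hochberg adjusted p under 0.05 in a limma fit over all 35 arrays. NOD probes stood well above background for 43.0% to 70.2% of probes at 12 weeks and 47.3% to 60.3% at 20 weeks. Precision depends on how many arrays each age has and on the spread between arrays, which the fit pools over all 35. The defining T cell genes Cd3e, Cd4 and Cd8a and the B cell genes Cd79a and Ms4a1 were measured in the nodes and are given below. Scanning was not balanced over the ages. Replicates 1 to 4 at 20 weeks shared their scanner with replicate 1 at 12 weeks, and replicate 5 at 20 weeks shared another with replicates 4, 5 and 6 at 12 weeks. Replicates 2, 3 and 7 at 12 weeks were read on scanners that read no array of 20 weeks. All 5 arrays of 20 weeks and 6 of the 7 of 12 weeks were scanned on 1 day, replicate 7 at 12 weeks being the exception. Replicates 5 and 6 at 12 weeks stood apart from the other 5 arrays of that age, with correlations of their ratios across probes of 0.22 to 0.38 against 0.47 to 0.73 among the other 5. Among the called genes, replicates 5 and 6 both lay nearer to 20 weeks than each of the other arrays of 12 weeks for 48.8% of the genes that were higher and 52.8% of those that were lower at 20 weeks.

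Of 28396 genes tested, 2831 (9.97%) had a higher ratio at 20 weeks and 3177 (11.2%) a lower one. The median difference over all genes was -0.01. Among the called genes 1158 were higher and 954 lower by at least 1 on the log2 scale, which is a doubling of the ratio. The largest changes went up: 232 genes were higher by at least 2 and 37 lower by as much. Of the 232, 67 belonged to the erythroid, neutrophil, megakaryocyte or acinar lists, which held 36, 28, 18 and 33 of the 28396 genes. The values of the 2 ages did not overlap for 2209 genes (7.78%). With 1 array of 12 weeks against the 4 arrays of 20 weeks on its scanner, 1499 genes were higher and 1580 lower, and with the 1 array of 20 weeks against the 3 of 12 weeks on its scanner 179 and 293. Of the 6008 called genes 2645 and 285 were called in the same direction in those comparisons, and none in the opposite one.

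Most of the difference lay in the NOD channel. In the NOD channel alone 2325 genes (8.19%) were higher and 2506 (8.83%) lower at 20 weeks, while in the NOD.B10 channel 51 (0.18%) were higher and 48 (0.169%) lower, counts that for the control may rest on repeat hybridisations of the same RNA. Of the 6008 genes called in the ratio, 3942 were called in the same direction in the NOD channel and 30 in the opposite direction in the control channel. Neither channel alone passed for 2047 of them. For the 2112 genes that differed by at least 1, the control channel carried a median share of -0.0099 of the difference (quartiles -0.134 to 0.106), and its share was above 0.5 for 37. A negative share means that the control moved in the direction of the ratio's difference. The islet hormone genes, described below, had a large part in the control.

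**Figure D1:**
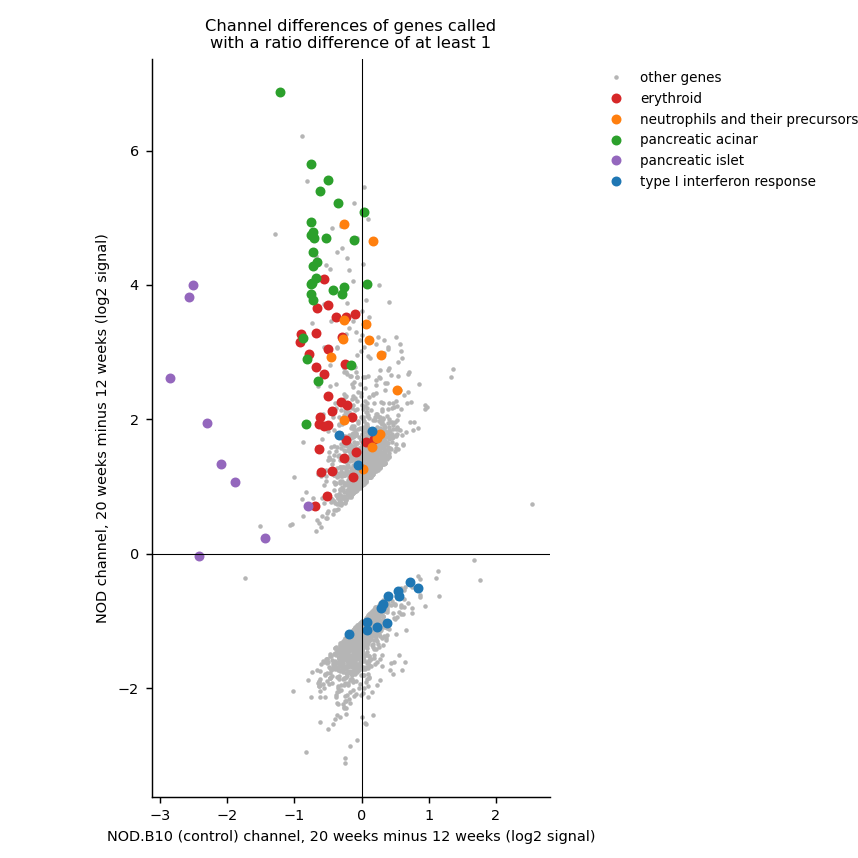
Difference between 20 weeks and 12 weeks in the NOD.B10 channel (x axis) and in the NOD channel (y axis), both in log2 signal, for the 2112 genes called with a ratio difference of at least 1; each point is a gene and colours mark lists. Erythroid, neutrophil and acinar genes lie high on the y axis with control differences near 0 or slightly below, whereas islet genes reach control differences of -2.85.

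Red cell genes had the largest share of called members among the 39 lists. Of 36 measured erythroid genes, 35 rose at 20 weeks and none fell, against 9.97% higher among all genes, and the median difference was 2.57 against -0.01 for all genes. The exception was Xk, a membrane protein of red cells, at -0.63 (0.056 after normexp and loess), which was not called and was picked with its value in view. The list's median difference was 2.17 in the NOD channel and -0.49 in the control. The median ratio of the list was -2.53 at its lowest, -1.54 at its median and -1.17 at its highest over the 7 arrays of 12 weeks. It was 0.02, 2.34, 0.81, 0.58 and 1.26 on replicates 1 to 5 at 20 weeks, so every array of 20 weeks lay above every array of 12 weeks, and replicate 2 was the highest. Single members did not overlap between the ages for 27 of the 36 genes, against 7.78% of all genes.

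Hba-a1, which encodes an alpha-globin chain of haemoglobin, had log2 ratios between -4.46 and -0.13 (median -2.33) at 12 weeks. At 20 weeks its ratios were 2.49, 3.07, 1.87, 1.80 and 2.31. The ages did not overlap, and the ratio was 20.0-fold higher at 20 weeks (difference 4.32 ± 0.47, SE; adjusted p = 1.14e-07, limma). In the NOD channel its log2 signal lay between 13.63 and 17.58 at 12 weeks and between 18.41 and 20.00 at 20 weeks. Slc4a1, the anion exchanger of the red cell membrane (band 3), had ratios between -4.53 and -1.28 (median -3.06) at 12 weeks. On the 4 arrays of 20 weeks with a value it stood at 0.58, 3.35, 1.78 and 1.93, a difference of 4.64 ± 0.68 (SE; adjusted p = 8.28e-06). Alas2, which starts haem synthesis in red cell precursors, ran from -4.10 to -0.16 (median -1.88) at 12 weeks and stood at 2.12, 2.63, 1.29, 0.65 and 1.34 at 20 weeks, a difference of 3.54 ± 0.49 (SE; adjusted p = 3.82e-06). For both genes no array of 20 weeks fell into the range of 12 weeks.

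Transcription factors of the erythroid lineage rose as well. Klf1, which activates the adult beta-globin gene, ran from -3.27 to -1.50 (median -2.67) at 12 weeks and stood at -0.11, 2.89, 1.17, 0.51 and 2.03 at 20 weeks, a difference of 3.91 ± 0.50 (SE; adjusted p = 1.06e-06). Nfe2, a subunit of a factor that binds the globin control regions, rose by 3.75 ± 0.42, and Gata1, the master factor of the lineage, by 1.60 ± 0.34. The Gata1 ages overlapped, and 3 of 7 arrays at 12 weeks and 4 of 5 at 20 weeks had a NOD signal well above background. Membrane proteins of mature red cells rose with them: the blood group protein Kel by 4.19 ± 0.50 and the anchor protein Ank1 by 4.06 ± 0.57. The Ank1 value came from the brightest of 5 probes, of which 2 were called and the lowest stood at -0.19. Prdx2, a peroxidase abundant in red cells, gave differences between 2.68 and 3.13 on its 3 probes. Hbb-bt, a beta-globin gene, gave differences between 4.17 and 5.16 on its 4 probes. Its control signal was saturated on 6 of 7 arrays at 12 weeks, and globin paralogs can share signal, so its size is uncertain.

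The erythroid count changed little with the settings tried, staying between 33 and 35 of 36 apart from the filter on bright probes (19 of 19) and the comparisons within a scanner (17 and 18 of 36). The median fell to 1.52 after normexp background correction and loess. Within the scanners the median was 2.42 and 3.05.

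Promoter sequences of erythroid genes were searched for the letters AGATAA, a form of the motif recognised by GATA factors, on both strands over the 250 bases before the gene start. RefSeq sequences (GRCm38.p6) matched 26 of the 36 measured genes, and 8 of the 26 (30.8%) held the letters, against 9.57% of 15273 promoters of tested genes. The 8 were Alas2, Epb42, Epor, Kel, Rhd, Tal1, Tmcc2 and Trim10. All were called, but so were 35 of the 36 measured genes of the list, so the calls do not set genes with the motif apart. A match is a description of the sequence and not of binding. The 4 with the largest differences are shown, with the motif in capitals (TTATCT is the same motif on the other strand). Kel lies on the minus strand at chr6:41704346-41704411, Trim10, a ubiquitin ligase family member of red cell precursors, on the plus strand at chr17:36869381-36869446, Rhd, the Rhesus protein, on the plus strand at chr4:134864463-134864528 and Alas2 on the plus strand at chrX:150547301-150547366. Trim10 rose by 3.96 and Rhd by 3.74, and both were named after their values were seen.
Kel: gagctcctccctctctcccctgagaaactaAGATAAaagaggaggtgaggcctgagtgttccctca
Trim10: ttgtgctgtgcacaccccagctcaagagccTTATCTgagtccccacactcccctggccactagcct
Rhd: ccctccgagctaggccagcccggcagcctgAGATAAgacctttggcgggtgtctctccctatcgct
Alas2: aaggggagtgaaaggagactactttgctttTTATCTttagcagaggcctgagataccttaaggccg

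**Figure D2:**
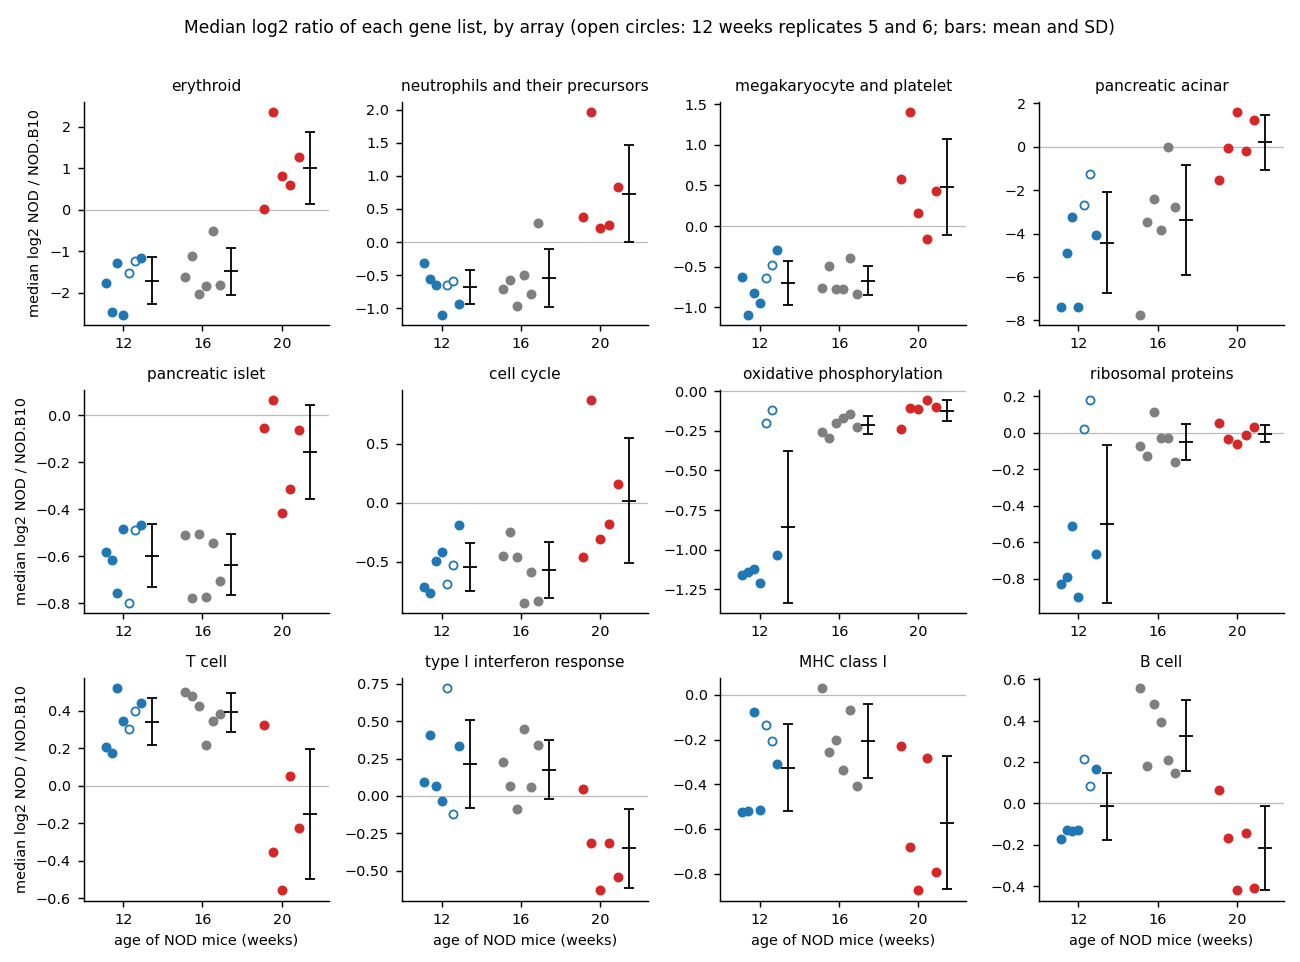
Median log2 ratio of NOD over NOD.B10 (y axis) over the measured genes of 12 lists, by age in weeks (x axis); each point is an array, open circles are replicates 5 and 6 at 12 weeks, grey points are the 6 arrays of 16 weeks for orientation, and bars give the mean and SD. Erythroid, neutrophil, megakaryocyte and islet medians do not overlap between 12 and 20 weeks, whereas for oxidative phosphorylation and ribosomal proteins the open circles lie with the arrays of 20 weeks.

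Genes of neutrophils and their bone marrow precursors rose for 15 of 28 measured members and fell for none, with a median difference of 1.05 (NOD channel 1.31, control 0.08). S100a8, a calcium-binding protein that fills the neutrophil cytoplasm, had ratios between -3.66 and -1.72 (median -2.94) at 12 weeks. At 20 weeks they were 0.75, 3.34, 1.07, 1.07 and 2.33, with no overlap, and the ratio was 22.3-fold higher (difference 4.48 ± 0.57, SE; adjusted p = 1.3e-06). Camp, the antimicrobial peptide cathelicidin of secondary granules, ran from -3.89 to -1.64 (median -2.92) at 12 weeks. It stood at 1.14, 3.85, 2.03, 1.07 and 2.55 at 20 weeks, 35.9-fold higher (difference 5.17 ± 0.58, SE; adjusted p = 2.1e-07), again with no overlap.

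Both early and late granule proteins were among the genes that rose. The primary granule enzymes Mpo (3.38 ± 0.60) and Ctsg (3.75 ± 0.46) rose, and so did Ngp (3.37 ± 0.43), a secondary granule protein, and S100a9, the partner of S100a8 (3.08 ± 0.55). Elane, neutrophil elastase, rose by 1.23 ± 0.41, with a control signal that was not well above background on any of the 12 arrays, and lost its call in 4 of the 12 fits that left out 1 array. Cxcr2, the chemokine receptor of circulating neutrophils, stood at -0.45 and the cytokine Il1b at 0.10, and neither was called. These last 2 lay outside the naming rule and were picked with their values in view. The count ran from 11 to 17 over the fits that left out 1 array, and the median fell to 0.34 after normexp background correction.

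Megakaryocyte and platelet genes rose for 11 of 18 measured members and fell for none, with a median difference of 1.15 (NOD channel 1.27). Pf4, the platelet chemokine, had ratios between -2.95 and -1.19 (median -2.43) on the 5 arrays of 12 weeks with a value. It stood at 0.24, 1.49, -0.22 and 0.49 on the 4 of 20 weeks with a value, with no overlap (difference 2.84 ± 0.38, SE; adjusted p = 3.95e-06). Gp9, part of the receptor for von Willebrand factor, rose by 2.98 ± 0.41 and Ppbp, a platelet basic protein, by 2.34 ± 0.39. Replicate 2 at 20 weeks had the highest list median of all 12 arrays for the erythroid (2.34), neutrophil (1.96) and megakaryocyte (1.40) lists. With the scanner as a block 6 of the 18 were called higher, without replicate 2 of 20 weeks 7 were, and the median was 0.37 after normexp background correction.

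Cell cycle genes rose for 28 of 70 members and fell for 2, with a median difference of 0.41 in the ratio and 0.41 in the NOD channel. Ube2c, which tags mitotic cyclins for destruction, ran from -1.88 to -0.52 (median -1.25) at 12 weeks. At 20 weeks its ratios were -0.06, 2.24, 0.49, 0.58 and 1.14, with no overlap, and the ratio was 4.69-fold higher (difference 2.23 ± 0.33, SE; adjusted p = 7.39e-06). Mki67, a marker of dividing cells, rose by 1.87 ± 0.35 on the probe used and by 1.60 on the other. Ccna2, a cyclin of S phase and mitosis, rose by 1.87 ± 0.30 and Mcm7, a subunit of the replicative helicase, by 1.41 ± 0.18. The 2 that fell were Plk4, a kinase of centriole duplication (-1.04), and Cdt1, a replication licensing factor (-0.71), both named after their values were seen. The list medians of the ages overlapped, with 12 weeks between -0.77 and -0.19 and 20 weeks at -0.46, 0.87, -0.31, -0.18 and 0.16. Replicate 2 was the highest of 20 weeks, replicate 5 the next and replicate 1 the lowest, as for the erythroid list (2.34, 1.26 and 0.02), and the part of red cell precursors in these genes was not tested. On the shared scan day alone 18 of the 70 rose, and after normexp background correction the median was 0.18.

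Genes of the unfolded protein response rose for 9 of 28 members and fell for 1. Xbp1, a transcription factor of secretory cells, rose by 1.97 ± 0.28 (SE; adjusted p = 5.36e-06), from ratios between -1.30 and 0.30 (median -0.72) to 0.71, 1.22, 1.66, 0.90 and 2.04 without overlap. Manf, a secreted protein induced by stress of the endoplasmic reticulum, rose by 1.51 ± 0.19. Calr, a chaperone of that compartment, rose by 1.39 ± 0.16 on the brightest probe, while its other probe was called at -0.97. The acinar list, whose cells are secretory, moved with these genes, and its part in them was not tested.

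Genes of oxidative phosphorylation rose for 33 of 57 members and fell for none (median 0.63), and genes of ribosomal proteins for 37 of 77, with 2 lower (median 0.42). The median difference of the oxidative phosphorylation genes was 0.63 in NOD and 0.03 in the control. That of the ribosomal genes was 0.20 in NOD and -0.25 in the control, and in NOD alone 20 were higher and 11 lower. The control signal was saturated on any array for 21 ribosomal genes and on all 12 for 4 of them. Atp5e, a small subunit of the mitochondrial ATP synthase, had ratios from -2.61 to -0.26 (median -2.30) at 12 weeks. It stood at 0.05, 0.11, 0.01, 0.13 and 0.14 at 20 weeks, a difference of 1.91 ± 0.28 (SE; adjusted p = 6.15e-06). Cox4i1, a subunit of the last respiratory enzyme, stood between -1.78 and 0.53 (median -1.50) at 12 weeks and at 0.46, 0.59, 0.67, 0.64 and 0.63 at 20 weeks, a difference of 1.63 ± 0.25 (SE; adjusted p = 1.53e-05). Its ages overlapped through replicate 6 at 12 weeks. Rpl36, a protein of the large ribosomal subunit, rose by 1.70 ± 0.29 on one probe and 1.80 on the other. Rps15a, of the small subunit, rose by 2.69 ± 0.28 on the probe used, while its other probe stood at -0.51. Ndufb8, a subunit of complex I, rose by 1.82 ± 0.28 on the probe used and stood at -0.29 on the other.

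In these 2 lists the spread at 12 weeks lay between arrays. The median ratio of the oxidative phosphorylation genes was -1.16, -1.14, -1.12, -1.21 and -1.04 on replicates 1, 2, 3, 4 and 7 at 12 weeks, but -0.20 and -0.12 on replicates 5 and 6, against -0.24, -0.11, -0.11, -0.06 and -0.10 at 20 weeks. The ribosomal median was 0.02 and 0.18 on replicates 5 and 6, between -0.90 and -0.51 on the other 5, and between -0.06 and 0.06 at 20 weeks. Replicates 5 and 6 both lay nearer 20 weeks than the other arrays of their age for 28 of 30 called oxidative phosphorylation genes with values on both and for 33 of 34 ribosomal genes. For the erythroid list that held for 6 of 35, and for the neutrophil list for 0 of 15, against 48.8% of all called genes that were higher. On the shared scan day alone 8 ribosomal and 20 oxidative phosphorylation genes were called higher. Without replicates 5 and 6 at 12 weeks 41 oxidative phosphorylation and 51 ribosomal genes were higher.

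**Figure D3:**
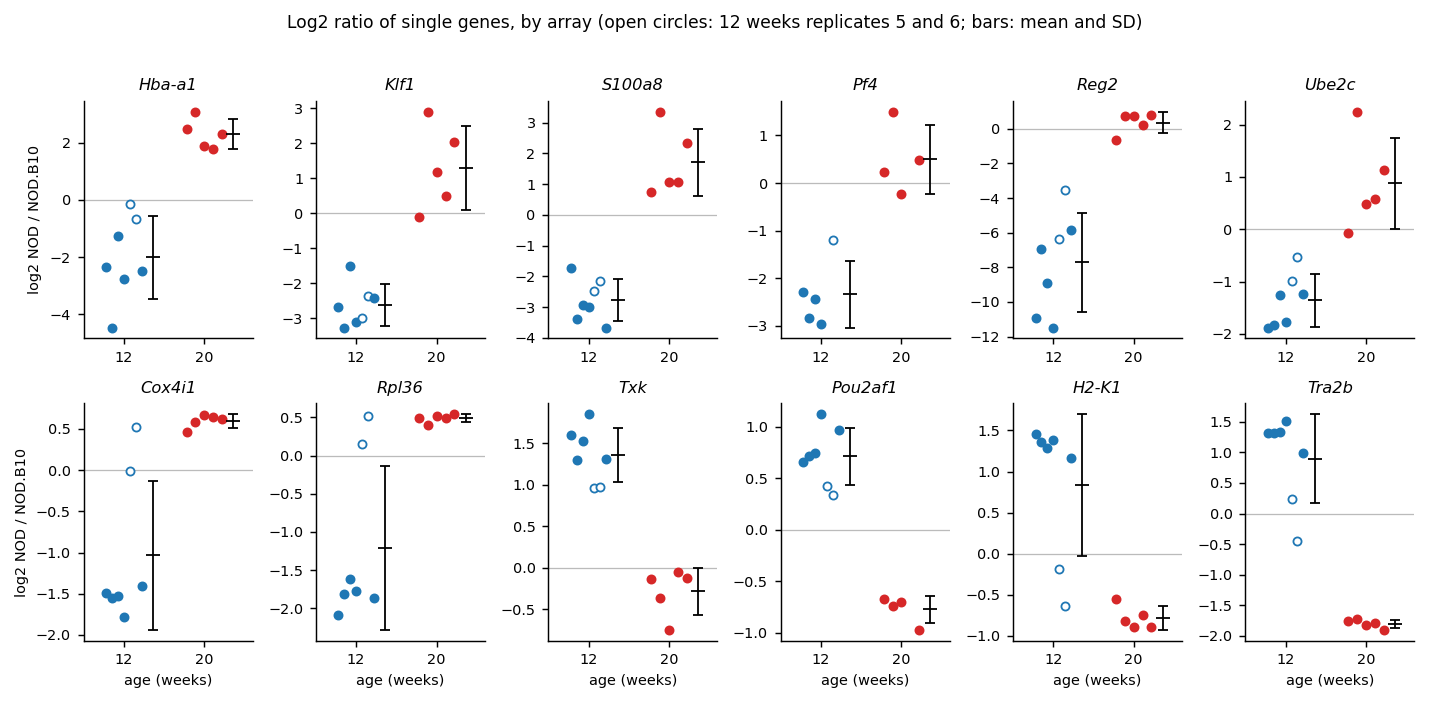
Log2 ratio of NOD over NOD.B10 (y axis) of 12 genes at 12 and 20 weeks (x axis); each point is an array, open circles are replicates 5 and 6 at 12 weeks, and bars give the mean and SD. Hba-a1, Klf1, S100a8 and Pf4 separate the ages on every array with a value, whereas for Cox4i1, Rpl36 and H2-K1 the open circles lie near the arrays of 20 weeks.

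Pancreatic acinar genes, which encode digestive enzymes and their regulators, rose for 29 of 33 members and fell for none. The median difference was 4.77 (NOD channel 4.03, control -0.67). The ratios at 12 weeks were far below 0 and very uneven, with list medians from -7.41 to -1.25 (median -4.06) over the 7 arrays. At 20 weeks the list stood at -1.55, -0.08, 1.59, -0.18 and 1.23, so the ages overlapped at replicate 1 of 20 weeks and replicate 6 of 12 weeks. The control signal was saturated on all 12 arrays for 13 of the 33 genes, among them Cela3b, an elastase, and on part of the arrays for 5. Among the 15 without a saturated control signal 11 rose, with a median difference of 4.09.

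Reg2, a regenerating protein of the exocrine pancreas with no saturated signal, had ratios between -11.49 and -3.52 (median -6.94) at 12 weeks. At 20 weeks they were -0.64, 0.74, 0.72, 0.23 and 0.77, with no overlap, and the difference of 8.08 ± 1.72 (SE; adjusted p = 0.000733) was the highest of all genes. At 12 weeks 5 of 7 arrays had a NOD signal of it well above background. Reg3a, a related protein, rose by 6.04 ± 1.26, with 3 of 7 arrays of 12 weeks well above background in NOD. The acinar transcription factors rose too. Rbpjl rose by 4.09 ± 0.97, Bhlha15 (Mist1) by 2.97 ± 0.75 on the brightest of 2 probes with 0.18 on the other, and Ptf1a by 2.76 ± 0.73. Cpa1, a carboxypeptidase, rose by 3.71 ± 1.15 and Cela2a, an elastase, by 4.16 ± 1.44, and the ages overlapped for both. The control signal of Cpa1 was saturated on 11 of 12 arrays, and Cela2a lost its call in 6 of the 12 fits that left out 1 array. Over the fits that left out 1 array 17 to 30 acinar genes rose, with 17 without replicate 1 or 4 of 12 weeks or 3 or 5 of 20 weeks, and within a scanner 3 and 0 passed at medians of 7.22 and 5.13. Their promoters held CACCTG, an E-box, for 15 of 28 genes (53.6%) against 19.2% of all promoters searched in the same way.

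Deaf1, a transcription factor studied for its part in peripheral tissue antigen expression, had ratios of -6.10, -5.13, -3.95, -5.27, -3.26, -1.41 and -5.78 at 12 weeks and -2.0, -0.31, 1.48, -0.27 and 1.11 at 20 weeks. The difference was 4.42 ± 1.08 (SE; adjusted p = 0.00304, limma) on the brightest of 3 probes, and the ages overlapped. The other 2 probes were not called, at 0.20 and 0.48, and at 12 weeks the brightest exceeded background clearly in NOD on 4 of 7 arrays. Replicate 6 was the highest of 12 weeks and replicate 1 the lowest of 20 weeks for both this probe and the acinar list median, and the part of acinar RNA in it was not tested. Aire, the factor of antigen expression in the thymus, stood between -0.10 and 0.62 at 12 weeks and at 0.59, 0.00, 0.62, 0.21 and 0.31 at 20 weeks, and its difference of 0.09 ± 0.22 was not called.

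Islet genes rose for 10 of 39 members and fell for none, with a median difference of 0.15, and in this list the control channel carried much of the change. Ins2, an insulin gene, had ratios between -7.05 and -1.40 (median -6.83) at 12 weeks and of 2.21, 1.78, -3.54, 1.0 and 1.82 at 20 weeks. The difference was 6.50 ± 1.21 (SE; adjusted p = 0.000157), of which 3.99 lay in NOD and -2.51 in the control. In the NOD channel Ins2 stood between 8.54 and 8.90 log2 units on 6 arrays of 12 weeks and at 14.07 on replicate 6. At 20 weeks it stood at 14.97, 14.44, 9.35, 14.55 and 14.49, so replicate 6 at 12 weeks and replicate 3 at 20 weeks crossed between the ages. In the control channel it lay between 14.00 and 15.78 at 12 weeks and between 12.66 and 13.54 at 20 weeks, with no overlap.

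The other islet genes also had parts in both channels. Ins1, the second insulin gene of mice, rose by 6.39 ± 0.97, with 3.81 in NOD and -2.57 in the control. Gcg, which encodes glucagon, rose by 5.47 ± 0.84 on the probe used, with 2.61 in NOD and -2.85 in the control, while its other probe stood at 0.12. Sst, somatostatin, rose by 2.94 ± 0.48, with 1.06 in NOD and -1.88 in the control. Chga, chromogranin A of hormone granules, rose by 4.26 ± 0.75, with 1.95 in NOD and -2.30 in the control. G6pc2, the islet glucose-6-phosphatase and a target of autoreactive T cells, rose by 3.42 ± 0.69, with 1.33 in NOD and -2.09 in the control. The NOD part was not called for Sst, Chga and G6pc2 (adjusted p = 0.104, 0.0721 and 0.175, limma), whereas the control part was called for all 6 genes over arrays that may carry the same control RNA. At 12 weeks Ins1, Gcg and Chga were well above background in NOD on 3 of 7 arrays, and G6pc2 on 1 of 7. With control parts from -1.88 to -2.85, the change of the ratio of these genes is not a change within NOD alone. The labels do not tie a control RNA to an array, so the control part cannot be assigned to a control RNA.

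**Figure D4:**
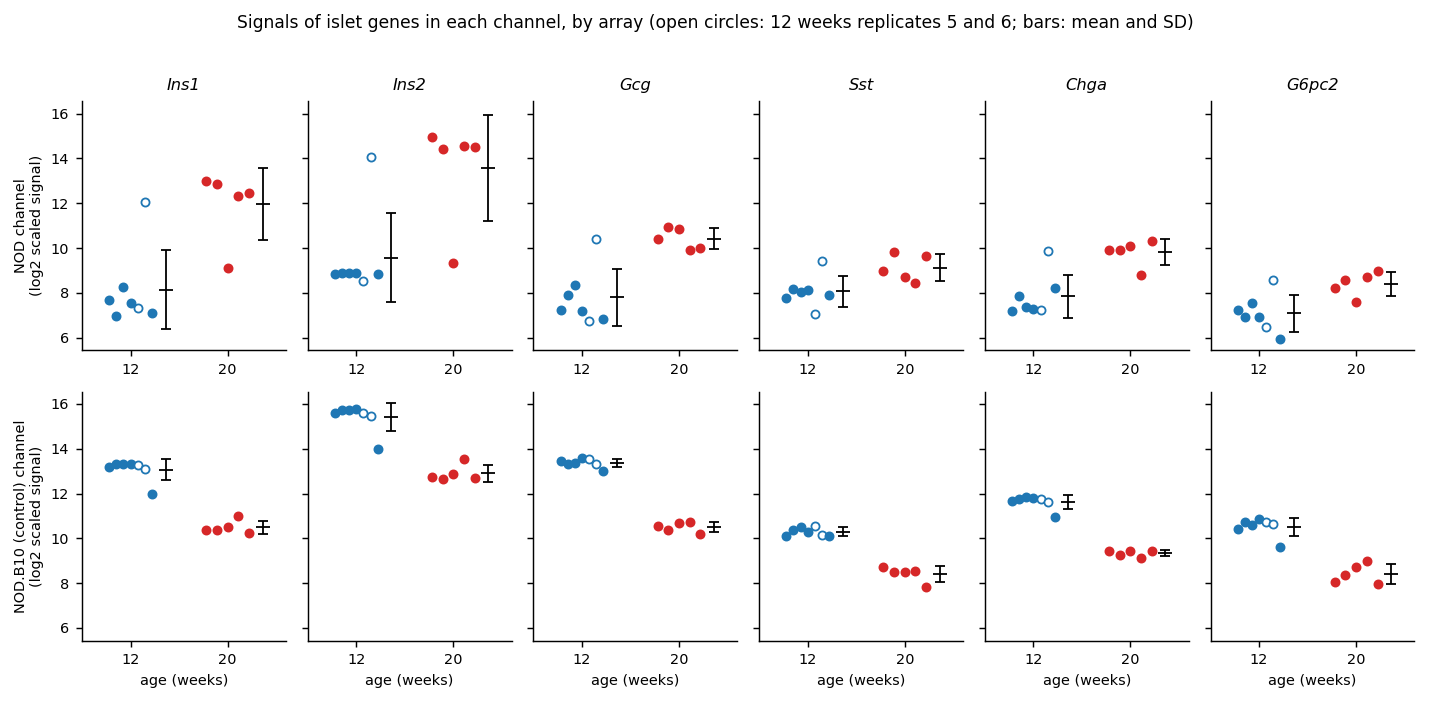
Log2 scaled signal (y axis) of 6 islet genes in the NOD channel (top) and the NOD.B10 channel (bottom) at 12 and 20 weeks (x axis); each point is an array, open circles are replicates 5 and 6 at 12 weeks, and bars give the mean and SD. The control signals are lower on every array of 20 weeks than on any of 12 weeks, whereas the NOD signals cross the ages through replicate 6 at 12 weeks and, for the insulin genes, replicate 3 at 20 weeks.

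Higher signals at 20 weeks were also found in the control. Mup4, a major urinary protein, had a ratio between -0.54 and 1.05 (median 0.60) at 12 weeks and of -1.84, -2.15, -1.84, -1.28 and -1.66 at 20 weeks, with no overlap. Of its difference of -2.15 ± 0.24 (SE; adjusted p = 2.04e-07), 1.76 lay in the control and -0.39 in NOD. In the control 3 of 7 arrays at 12 weeks and 5 of 5 at 20 weeks had a signal well above background. Liver-secreted protein genes rose for 3 of 18 members (16.7%, against 9.97% of all genes). They were Ambp (2.97 ± 0.90), Apoa1 (1.19 ± 0.37) and Alb, albumin (2.15 ± 0.68). The Alb signal was 2.21-fold higher in NOD and 2.01-fold lower in the control. Its control part was called lower, over arrays that may carry the same control RNA. Alb was well above background in NOD on 3 of 7 and 3 of 5 arrays. Apoa1 was not well above background in either channel on any array of 12 weeks. Both lost their call without replicate 1 of 20 weeks, where 1 of the 18 rose. Duct and epithelium genes rose for 6 of 23 members (26.1%, against 9.97% of all genes), and for 4 to 9 with 1 array left out. The list medians of the ages overlapped, from -0.78 to 0.80 at 12 weeks and from -0.34 to 0.59 at 20 weeks. The list was led by Car2, a carbonic anhydrase of ducts and red cells (3.66 ± 0.52), which also stands in the erythroid list.

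T cell genes fell for 14 of 31 members and rose for 3, against 11.2% lower and 9.97% higher among all genes, with a median difference of -0.46 (NOD channel -0.59, control -0.12). The list medians ran from 0.17 to 0.52 (median 0.35) at 12 weeks and stood at 0.33, -0.35, -0.56, 0.05 and -0.225 at 20 weeks. The ages overlapped through replicate 1 of 20 weeks. Txk, a kinase of T cell receptor signalling, had ratios between 0.96 and 1.85 (median 1.31) at 12 weeks. At 20 weeks they were -0.13, -0.36, -0.75, -0.05 and -0.12, with no overlap, and the ratio was 3.13-fold lower (difference -1.64 ± 0.18, SE; adjusted p = 1.57e-07). Its second probe fell by 1.04 on the log2 scale. Lef1, a factor of naive T cells, fell by 1.39 on the log2 scale, with -0.59 on its other probe. Icos, a costimulatory receptor, ran from 0.47 to 0.98 (median 0.77) at 12 weeks and stood at -0.36, -1.05, -0.66, -0.27 and -0.84 at 20 weeks, a difference of -1.37 ± 0.17 (SE; adjusted p = 5.69e-07), while its other probe stood at 0.28. Il7r, the receptor for the survival cytokine IL-7, fell by 1.48 on the log2 scale with 0.04 on its other probe.

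The genes that define the T cell lineages did not follow 1 direction. Of the subunits of the T cell receptor complex, Cd3g (0.89 ± 0.23) and Cd3d (0.88 ± 0.32) rose, while Cd3e stood at 0.38 ± 0.27 and was not called. The coreceptor chain Cd8a fell by 0.65 on the log2 scale and its partner Cd8b1 rose by 0.65, and 2 further Cd8a probes were not called, the higher at 0.24. Cd4 stood at -0.42 ± 0.22 and was not called. Cd3d, Cd3g and Cd8b1 were the 3 that rose and were named after their values were seen. Cd3d lost its call in 9 and Cd8b1 in 7 of the 12 fits that left out 1 array, and Cd3g without replicate 1 of 20 weeks. Among 17 genes of regulatory T cells 3 fell (17.6%, against 11.2% lower among all genes; 1 without replicate 6 of 12 weeks or 2 of 20 weeks), including Foxp3, their defining factor (-0.93 ± 0.31), and Ikzf2 (-1.63 ± 0.29, with 2 of 6 probes called and the highest at 0.31). Foxp3 was 1.33-fold lower in NOD and 1.43-fold higher in the control, and 1 gene of the list was called lower in NOD alone. The Foxp3 ages overlapped, 5 of 7 and 3 of 5 arrays had a NOD signal well above background, and it lost its call in 4 of the 12 fits that left out 1 array. Costimulation and checkpoint genes fell for 9 of 25 members and rose for none, and 5 fell without replicate 3 of 20 weeks. On the shared scan day alone 7 of the 31 T cell genes fell and none rose.

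B cell genes fell for 9 of 26 members and rose for 2, with a median difference of -0.05. The sign of that median turned without replicate 3 (0.005) or 5 (0.014) of 20 weeks and within the scanner of replicate 1 of 12 weeks (0.20), and 0 to 4 rose with 1 array left out, none without replicate 1 or 4 and 4 without replicate 6 of 12 weeks. Pou2af1, a coactivator of antibody genes, ran from 0.34 to 1.12 (median 0.72) at 12 weeks. On the 4 arrays of 20 weeks with a value it stood at -0.67, -0.74, -0.70 and -0.97, with no overlap (difference -1.48 ± 0.16, SE; adjusted p = 9.26e-08). Tnfrsf13c, the receptor for the survival factor BAFF, fell by 1.59 on the log2 scale, Blnk, an adaptor of the B cell receptor, by 1.11 and the tetraspanin Cd37 by 0.97. The lineage markers Cd79a and Ms4a1 were not called, with Cd79a at 0.04 ± 0.20 and Ms4a1 at -0.20 ± 0.16. On the shared scan day alone 5 of the 26 fell.

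MHC class I genes fell for 9 of 22 members and rose for none, with a median difference of -0.36 (NOD channel -0.15, control 0.16). In the NOD channel alone 3 of the 22 were called lower. H2-K1, a classical class I heavy chain, had ratios of 1.46, 1.36, 1.29, 1.38 and 1.16 on replicates 1, 2, 3, 4 and 7 at 12 weeks and of -0.18 and -0.64 on replicates 5 and 6. At 20 weeks it stood at -0.55, -0.82, -0.90, -0.75 and -0.90, a difference of -1.62 ± 0.27 (SE; adjusted p = 3.99e-05), with replicate 6 inside the range of 20 weeks. H2-M3, which presents formylated peptides, fell by 1.27 on the log2 scale without overlap, with -0.02 on its other probe. H2-D1 (-0.57 ± 0.17) and the light chain B2m (-0.52 ± 0.15) fell with overlapping ages and lost their call without replicate 3 of 20 weeks. Of the list, 4 of the 22 fell on the shared scan day alone, 4 with the scanner as a block and 6 without replicates 5 and 6 at 12 weeks. With 1 array left out 3 to 11 fell, 3 without replicate 3 of 20 weeks and 5 without replicate 3 of 12 weeks or 2 or 5 of 20 weeks. Probes of the MHC can differ in their match to the haplotypes of the 2 strains, so a level between strains is uncertain for these genes.

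Of 11 class II genes 2 were higher and 2 lower (18.2% each, against 9.97% higher and 11.2% lower among all genes). H2-DMb2, a chain of the peptide loading factor, ran from -0.31 to 0.63 at 12 weeks and stood at 1.36, 0.96, 0.85, 0.97 and 0.70 at 20 weeks, a rise of 0.86 ± 0.19 (SE; adjusted p = 0.000845) without overlap. Its second probe gave 0.89. Cd74, the invariant chain, rose by 0.69 ± 0.17. H2-Ab1, a class II beta chain, fell by 0.55 on the log2 scale on 1 of 4 probes, the highest of which stood at 0.14. H2-Aa (0.22 ± 0.32) and H2-Eb1 (0.20 ± 0.25) were not called.

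Type I interferon response genes fell for 15 of 36 members and rose for 3, with a median difference of -0.56. Taken on each channel alone, the list medians were -0.37 in NOD and 0.29 in the control. The median control signal of the list lay between 9.70 and 10.38 log2 units at 12 weeks and between 10.60 and 10.85 at 20 weeks, with no overlap. In the NOD channel the medians overlapped, from 9.91 to 11.56 at 12 weeks and from 9.60 to 10.69 at 20 weeks. Trim30a, an interferon-induced ubiquitin ligase, ran from -0.08 to 0.98 (median 0.77) at 12 weeks and at 20 weeks stood at -0.35, -0.56, -1.04, -0.64 and -0.77 without overlap (difference -1.33 ± 0.18, SE; adjusted p = 3.32e-06), and its other probe was called too, at -0.92. Stat2, a transcription factor of interferon signalling, fell by 1.0 on the log2 scale with overlapping ages. The RNA sensor Dhx58 fell by 1.07 on the probe used, while its other probe stood at -0.22 and was not called.

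The 3 that rose were Rsad2 (viperin, an antiviral enzyme; 2.10 ± 0.38), Isg20, an exonuclease (1.68 ± 0.28), and Ifi27 (1.38 ± 0.50), which were named after their values were seen. Ifi27 lost its call in 7 of the 12 fits that left out 1 array. On the shared scan day alone 9 of the 36 fell. Interferon gamma response genes fell for 8 of 24 and rose for 2, and 4 fell without replicate 3 of 20 weeks. Cxcl10, a chemokine of that response, fell by 1.19 on the log2 scale with overlapping ages, and Ifng itself stood at -0.53 ± 0.31 and was not called.

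The interferon-stimulated response element was searched as GAAA followed by any 2 bases and GAAA, on both strands of the same windows. It was found in 10 of 24 promoters of the type I interferon list (41.7%) against 3.36% of all promoters. Of the 10 genes 4 were called, and they moved in both directions, Rsad2 up and Ifit3, an inhibitor of viral RNA translation (-1.35 ± 0.39), Trim30a and Stat2 down. Their motifs are shown in capitals because the same letters precede genes that rose and fell. By GRCm38.p6 of RefSeq, Rsad2 lies on the minus strand at chr12:26456533-26456602, Ifit3 on the plus strand at chr19:34583377-34583446, Trim30a on the minus strand at chr7:104465194-104465259 and Stat2 on the plus strand at chr10:128270248-128270315. Ifit3, named after its values were seen, held a second match outside the stretch shown. Of the Ifit3 difference -0.51 lay in NOD and 0.84 in the control, where it was called higher.
Rsad2: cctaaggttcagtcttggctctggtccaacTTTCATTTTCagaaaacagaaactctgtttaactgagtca
Ifit3: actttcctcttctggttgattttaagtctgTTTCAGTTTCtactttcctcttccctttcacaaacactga
Trim30a: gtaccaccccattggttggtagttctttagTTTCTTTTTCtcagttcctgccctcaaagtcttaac
Stat2: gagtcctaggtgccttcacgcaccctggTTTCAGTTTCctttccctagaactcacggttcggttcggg

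Among genes of the node's framework, stromal fibroblast genes fell for 7 of 27 members and rose for none. Lum, a collagen-binding proteoglycan, ran from -1.09 to 2.01 (median 0.25) at 12 weeks and stood at -1.28, -2.67, -1.81, -1.02 and -1.75 at 20 weeks (difference -2.01 ± 0.37, SE; adjusted p = 0.000134), with overlap through replicate 6 at 12 weeks. Ccl19, a chemokine that guides T cells into the node, fell by 0.92 on the log2 scale and by 0.91 on its other probe. Blood endothelium genes fell for 9 of 27 (33.3%) and rose for 4 (14.8%), against 11.2% and 9.97% of all genes. Among those that fell were the adhesion protein Pecam1 (-0.92 ± 0.18) and the VEGF receptor Kdr (-1.02 ± 0.23). C3, the central complement protein, fell by 1.48 on the log2 scale without overlap.

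Of 29 macrophage and monocyte genes 8 were higher (27.6%) and 5 lower (17.2%), against 9.97% and 11.2% of all genes. Without replicate 3 or 5 of 20 weeks 3 were lower. Hmox1, which breaks down haem and rises in cells that clear red cells, ran from -3.11 to -0.43 (median -2.71) at 12 weeks. It stood at -0.57, 1.69, 1.27, -0.10 and 0.36 at 20 weeks, a rise of 2.68 ± 0.40 (SE; adjusted p = 9.45e-06) with overlap at replicate 1. C1qa, a subunit of the first complement component, rose by 1.39 ± 0.27. Sgk1, a kinase induced by glucocorticoids, rose by 1.51 ± 0.22, and 3 of 16 glucocorticoid response genes rose in all (18.8%, against 9.97% of all genes), and 1 rose without replicate 5 of 20 weeks. Il18r1, a receptor for interleukin 18, fell by 1.53 on the log2 scale. Of 56 cytokine and cytokine receptor genes 9 fell (16.1%) and 7 rose (12.5%), near the 11.2% and 9.97% of all genes.

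**Figure D5:**
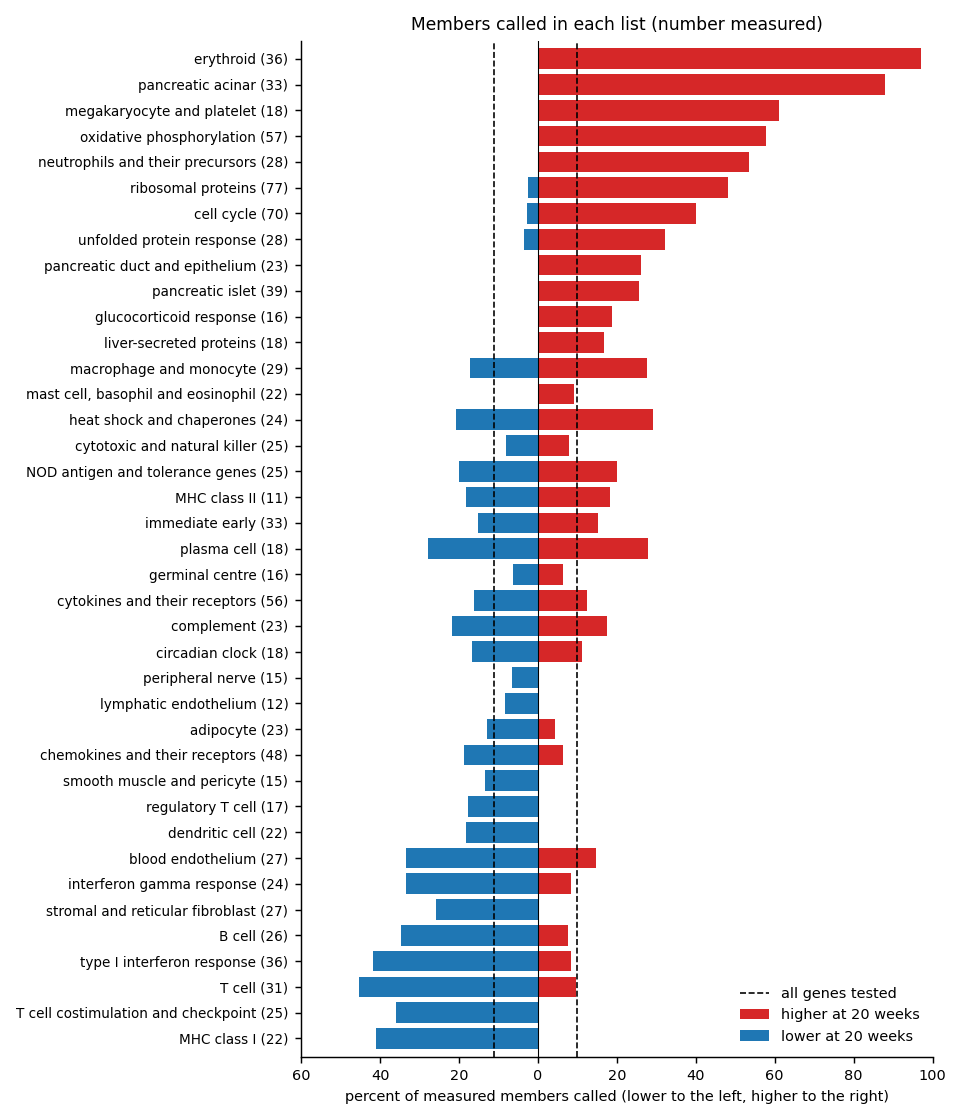
Percent of the measured members of each of 39 lists that were called higher (to the right) or lower (to the left) at 20 weeks, with the number measured in brackets; dashed lines mark the shares among all genes tested, 9.97% higher and 11.2% lower. Erythroid genes reach 97.2% higher and acinar genes 87.9%, and the largest shares lower are those of T cell (45.2%), type I interferon (41.7%) and MHC class I genes (40.9%).

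Among named genes without overlap, those with the lowest differences were single genes outside these groups. Tra2b, a splicing regulator, had ratios of 1.32, 1.32, 1.33, 1.51 and 0.98 on replicates 1, 2, 3, 4 and 7 at 12 weeks and of 0.24 and -0.46 on replicates 5 and 6. At 20 weeks it stood at -1.76, -1.73, -1.82, -1.79 and -1.90, with no overlap (difference -2.70 ± 0.21, SE; adjusted p = 2.72e-10), while its other probe stood at -0.09. Rpgrip1, a ciliary protein of photoreceptors, fell by 2.60 on the log2 scale on the probe used. Of its 4 probes 2 were called, the second at -1.80, and the highest stood at 0.61. Zfp945, a zinc finger protein, fell by 2.58 on the log2 scale, with 1 of 3 probes called and 1 of 5 arrays of 20 weeks well above background in NOD. Sorl1, a sorting receptor, ran from -0.20 to 0.46 at 12 weeks and stood at -2.17, -2.06, -2.35, -1.93 and -2.22 at 20 weeks (difference -2.33 ± 0.19, SE; adjusted p = 7.96e-10).

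Probes of a gene did not all agree among these. Of the 15 genes with the lowest differences 12 had several probes, which were all called in the same direction for 2 and lay on both sides of 0 for 5. Of the 15 highest 3 had several probes. Replicates 5 and 6 at 12 weeks both lay nearer to 20 weeks than the other arrays of 12 weeks for 9 of 14 of the lowest and 3 of 14 of the highest genes with values on both. Among all called genes that held for 52.8% of those lower and 48.8% of those higher at 20 weeks. Over all genes with at least 2 called probes, 128 of 919 (13.9%) had called probes of opposite direction. That share leaves out probes not called, so it is not a rate to set beside the 5.

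At 16 weeks the genes called with a difference of at least 1 lay, at the median, between the ages. On a scale from 0 at 12 weeks to 1 at 20 weeks, the 16 week mean stood at a median of 0.386 (quartiles 0.096 to 0.842) for genes that rose and 0.537 (0.295 to 0.766) for genes that fell. The erythroid median ratio lay between -2.04 and -0.50 on the 6 arrays of 16 weeks, below every array of 20 weeks, and the acinar median between -7.74 and 0.01. For the oxidative phosphorylation and ribosomal lists the arrays of 16 weeks, between -0.30 and -0.14 and between -0.16 and 0.11, lay with the arrays of 20 weeks and with replicates 5 and 6 of 12 weeks.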

How the data were processed

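NOD (Cy3) and NOD.B10 (Cy5) lymph node RNA was hybridised to Agilent whole mouse genome arrays. The deposited processed intensities had been background-subtracted and dye-normalised within each array, per the file headers, and the mean and background intensities were raw. The table deposited by the authors holds log10 values, NOD divided by NOD.B10: they matched the sign-turned scanner log10 ratio within 5e-10. Feature Extraction was version 8.5 per the submitters' processing notes, and 8.1.1.1 on 11 and 8.5.1.1 on 24 arrays per the file headers. No aligner or genome applies to these arrays, and no source used here names the genome build behind the probes.

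Log2 ratios were formed from the deposited intensities, without control spots and outlier flags. Probes were kept if 4 or more arrays had a signal well above background in either channel (40837 of 41174), and each gene was read from its brightest probe. Names were updated through a RefSeq table by accession (21578 probes), symbol (5377) or synonym (4618), and 9601 kept their name. Group means of 6 ages over 35 arrays were fitted with limma 3.58.1 in R 4.3.3 (lmFit, eBayes), with Benjamini-Hochberg adjustment at 0.05, and the steps were tested on simulated data. Channels were scaled with Aquantile, which keeps each array's ratio.

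The comparison, its 39 gene lists and the naming rule were chosen with earlier results of these data known. The rule named the 15 highest and 15 lowest called differences without overlap, up to 4 called members of each list, a fixed panel, and the 10 highest and 10 lowest NOD differences among genes without overlap whose control differed by under 0.25; not all are printed, and some genes are not reported here. Exceptions are marked as named after their values were seen. Alternatives were normexp with offset 50 and loess, the deposited values, other filters and centring, the shared scan day, day, version and scanner blocks, each array left out, other probe rules, other channel scalings and, added after seeing the data, comparisons within a scanner, the scanner block for the channels and the mean of probes for lists and named genes.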

Additional observations from a re-analysis of the deposited data

Results flagged for a closer look

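Single arrays stood far from the others of their age for 12 of 218 gene groups and 5 of 78 list groups tested, where chance alone would give about 10.9 and 3.9. Replicate 6 at 12 weeks gave 5 of them and replicate 4 at 20 weeks 4. No cause of these values was tested.

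At 12 weeks replicate 6 had log2 ratios of -1.04 for Ins1 (the other arrays -6.32 to -4.87), -1.40 for Ins2 (-7.05 to -5.14), -0.54 for Stat2 (0.28 to 0.65), -1.30 for Kdr (-0.22 to 0.13) and 0.095 for Rpgrip1 (0.82 to 1.17). Replicate 5 at 12 weeks had 0.11 for Rps15a (-2.27 to -2.05), 1.56 for Dhx58 (0.14 to 0.72) and 2.72 for Ifit3 (-0.32 to 0.54). Replicate 1 at 12 weeks had -0.57 for S100a9 (-2.80 to -2.07), and replicate 2 a duct and epithelium median of 0.80 (-0.78 to -0.33).

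At 20 weeks replicate 2 had a ratio of 0.68 for Cxcr2 (the other arrays -0.78 to -0.46). Replicate 3 had a ratio of -3.54 for Ins2 (the other arrays 1.0 to 2.21) and an interferon gamma response median of -0.50 (0.067 to 0.25). Replicate 4 at 20 weeks had -2.07 for Kdr (-1.12 to -0.89), and list medians of -0.39 for plasma cells (-0.16 to -0.072), 0.86 for adipocytes (-1.96 to -1.44) and 0.12 for nerve (-0.48 to -0.41).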

How the results depend on the processing

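Against 2831 higher and 3177 lower genes, a fit to the 12 arrays alone gave 1787 and 1992, the shared scan day 1504 and 1586, and a minimum size of 1 (log2) 1158 and 954. Within a scanner 1499 and 1580 genes passed with replicate 1 of 12 weeks and 179 and 293 with replicate 5 of 20 weeks; these 2 comparisons, added after seeing the data, have 1 array on one side, which is assumed to vary like the other groups. The replicate numbers did not pair the samples (correlations of deviations -0.053 to 0.076), and the replicate block gave 1686 and 1645. Leaving out 1 array gave 2386 to 3310 higher and 2700 to 3682 lower genes; in the NOD channel 1895 to 2893 and 1939 to 3043, and in the control channel 30 to 70 and 30 to 72. The NOD channel had 789 higher and 1864 lower genes with arrays scaled by their median, and 1236 higher and 1299 lower on the shared day. The control channel had 7 and 16 with median scaling, 151 and 188 on the shared day, and 84 higher with the scanner as a block. Of 98 called genes named, 11 lost their call with normexp and loess, 10 on the shared day, 8 with the scanner block and 14 with the replicate block.

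Signs turned for genes not called and for Cd3d. Within the scanner of replicate 5 of 20 weeks the values were -0.40 for Cd79a, -0.17 for Cd3d, -0.62 for H2-Aa, -0.21 for H2-Eb1 and 0.40 for Ifng, and within that of replicate 1 of 12 weeks 0.047 for Ms4a1, -0.17 for Aire and -0.021 for Il1b. Aire stood at -0.14 and Cd79a at -0.078 with the scanner block. Il1b stood at -0.044 on the shared day, at -0.19 with the replicate block and between -0.19 and 0.33 with 1 array left out, and Xk at 0.056 with normexp. Cd79a stood at -0.0074 with normexp, at -0.0026 with the version block and between -0.071 and 0.225 with 1 array left out. The cause was not tested. Signals below background and saturated control signals limit the size of differences, and the near overlap of scanner and age cannot be resolved with these arrays.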

Other observations

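Heat shock and chaperone genes were higher at 20 weeks for 7 of 24 members and lower for 5, plasma cell genes for 5 and 5 of 18, and immediate early genes for 5 and 5 of 33. Mast cell, basophil and eosinophil genes rose for 2 of 22, chemokine and chemokine receptor genes rose for 3 and fell for 9 of 48, and complement genes rose for 4 and fell for 5 of 23. Dendritic cell genes fell for 4 of 22, cytotoxic genes for 2 of 25 with 2 higher, and clock genes for 3 of 18 with 2 higher. Adipocyte genes fell for 3 of 23 and rose for 1, smooth muscle genes fell for 2 of 15, and lymphatic endothelium and nerve genes for 1 each of 12 and 15. Germinal centre genes rose for 1 and fell for 1 of 16. Of the 25 genes listed for NOD antigens and tolerance 5 rose and 5 fell. With 1 array left out several of these counts changed by more than 1.5 times. Without replicate 4 of 20 weeks 3 heat shock genes rose, without replicate 3 or 5 of 20 weeks 5 chemokine and 3 complement genes fell and 3 immediate early genes rose (3 also without replicate 1 of 12 weeks), and without replicate 2 of 20 weeks 3 complement genes fell. Clock genes fell for 1 without replicate 2, 4 or 5 of 20 weeks, adipocyte genes for 1 without replicate 1 or 2 of 12 weeks or 1, 2, 3 or 5 of 20 weeks, and smooth muscle genes for none without replicate 3 of 20 weeks. The other counts of 3 or fewer moved by at most 1 gene. The share of members called in these lists may be set against 9.97% higher and 11.2% lower among all genes.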
